A study of Homo sapiens and Mus musculus with 29 samples.

Results

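The comparison asked whether FOXA1 overexpression was accompanied by a different change in gene expression in HPAF-II tumors that carried the HNF4G-KO label than in HPAF-II tumors that did not. It used 15 primary pancreas tumors from 14 mice, of 29 samples in the series, and no sample was chosen by its measured values. HPAF-II is an established human pancreatic ductal adenocarcinoma line of the classical type. The cells were injected into the tail of the pancreas of NSG mice, which lack T, B and NK cells but keep their own stroma, and the bulk tumors were sequenced. The control group (Cas-9 with an empty vector) had 3 tumors, the FOXA1-OE group (Cas-9 with a lentiviral FOXA1 vector) had 3, the HNF4G-KO group (HNF4G knockout with an empty vector) had 4 and the HNF4G-KO + FOXA1-OE group (HNF4G knockout with the FOXA1 vector) had 5. The knockout was made with CRISPR/Cas9, and all 4 groups carried a lentiviral vector, either empty or with FOXA1. The HNF4G-KO cells were a pool of clones that the paper calls knockouts and names HNF4G-/-. It describes their frameshift mutations as heterozygotic. Tumors 2 and 3 of the HNF4G-KO + FOXA1-OE group came from 1 mouse and were averaged, which left 4 mice in that group.

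FOXA1 is a forkhead transcription factor that can bind closed chromatin and open it for other factors, and it marks epithelia derived from the endoderm. HNF4G is a nuclear receptor closely related to HNF4A, and both act in gut, liver and pancreas epithelium. The contrast reported here is the difference between HNF4G-KO + FOXA1-OE and HNF4G-KO tumors minus the difference between FOXA1-OE and control tumors, on the log2(RPKM + 1) scale, on which changes of low genes are understated. A negative contrast means that the difference that went with the FOXA1 vector was lower in tumors with the HNF4G-KO label than in tumors without it.

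The transcripts of the manipulated genes were checked first. In control tumors FOXA1 stood at 0.932, 0.679 and 0.519 RPKM, and in FOXA1-OE tumors 1, 2 and 3 at 6.32, 8.18 and 0.763 RPKM. FOXA1-OE tumor 3 thus lay within the range of the control tumors and went against its label. FOXA1 was at 1.26, 1.34, 1.36 and 1.87 RPKM in the HNF4G-KO tumors and at 11.99, 5.76, 23.2, 6.503 and 4.65 RPKM in the HNF4G-KO + FOXA1-OE tumors, with no overlap between these groups. The contrast of FOXA1 itself was 0.38 (SE 0.64, adjusted p = 0.92), so that a difference between the 2 inductions was not detectable. HNF4G was at 2.48 to 3.47 RPKM in control tumors and at 5.72 to 8.42 RPKM in HNF4G-KO tumors. Its transcript was thus higher in every tumor of the HNF4G-KO group than in control. It was at 3.04, 2.26 and 0.495 RPKM in FOXA1-OE tumors. In HNF4G-KO + FOXA1-OE tumors it was at 7.09, 6.16, 6.67, 3.94 and 1.69 RPKM, a range that overlapped control and reached below it. The paper checked the frameshift mutations of the clones by Sanger sequencing. RPKM per gene does not show whether a frameshift is present or protein is made. Group names in what follows are those of the labels. Directions drawn from them carry 2 limits: FOXA1 was not raised in FOXA1-OE tumor 3, and HNF4G protein was not measured here. HNF4A, its paralog, was at 8.49 to 11.3 RPKM in control tumors and at 14.6 to 21.9 RPKM in HNF4G-KO tumors, and its contrast was 0.03 (SE 0.27, adjusted p = 0.99).

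The depth recovered from the RPKM steps was 35.1 to 64.1 M reads per tumor, with the commonest step taken as 2 reads. With that step taken as a single count it was 17.6 to 32.1 M. The epithelial markers KRT8, KRT18, KRT19, EPCAM and CDH1 were at 38.3 RPKM or more in every tumor. Markers of host tissue were also present, and mouse reads, which can align to human genes, were not separated here. The summed level of 24 stroma genes was 93.2 to 265 RPKM in control, 70.2 to 221 RPKM in FOXA1-OE, 88.2 to 110 RPKM in HNF4G-KO and 82.1 to 164 RPKM in HNF4G-KO + FOXA1-OE tumors. Among the 4 endothelial markers of that list, PECAM1 and VWF were below 0.1 RPKM in all 15 tumors, while CDH5 reached 0.121 RPKM and KDR 0.454 RPKM. The summed level of 30 genes of exocrine and endocrine pancreas was 2193 RPKM in control tumor 2 and 1.88 to 221 RPKM in the other tumors. Mitochondrially encoded genes took 17.1% to 52.8% of the RPKM of a tumor, with both extremes in tumors that carried the FOXA1 vector. In bulk tumors, fewer cells of a type and less RNA per cell cannot be told apart.

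Of 14269 genes with a mean of 1 RPKM or more, 5 had a contrast at an adjusted p under 0.05 (0.035% of the genes tested; limma with Benjamini-Hochberg adjustment), and all of them were negative. At an unadjusted p under 0.05, 697 genes were lower (4.88%) and 512 were higher (3.59%). With the tumors shifted to the same median, these were 603 lower and 681 higher. Of the single differences behind the contrast, HNF4G-KO + FOXA1-OE against HNF4G-KO had 8 genes at an adjusted p under 0.05 (0.0561%), all lower, and HNF4G-KO against control had 1736 (12.2%). FOXA1-OE against control had 0 in limma (0.0%), with 351 genes higher and 301 lower at an unadjusted p under 0.05. These comparisons share tumors with the contrast and with each other, so their values are given side by side and are not independent of it.

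The largest negative contrast among the 5 genes was that of FAM81B, a little-characterized protein-coding gene (ENSG00000153347.9, GRCh38 chr5:95391366-95450454, plus strand). FAM81B was at 2.31, 1.28 and 1.63 RPKM in control tumors, at 5.20, 3.09 and 4.17 RPKM in FOXA1-OE tumors, at 4.75, 6.01, 6.65 and 5.75 RPKM in HNF4G-KO tumors and at 0.956, 3.33, 0.688, 2.01 and 2.47 RPKM in HNF4G-KO + FOXA1-OE tumors. The control group and the doubly modified group were both low, and each group with a single modification was higher than the control group without overlap. The contrast was -2.22 (SE 0.30, adjusted p = 0.042). The difference with the FOXA1 vector was 0.91 without the HNF4G-KO label (adjusted p = 0.84) and -1.31 with it (adjusted p = 0.042). Against control, HNF4G-KO tumors differed by 1.32 (adjusted p = 0.0031).

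ADGRL3 encodes latrophilin 3, an adhesion G protein-coupled receptor (ENSG00000150471.16, chr4:61200326-62078335, plus strand), and FLRT3 encodes a cell-surface ligand of latrophilins. ADGRL3 was at 1.18, 0.891 and 0.968 RPKM in control, at 1.74, 1.88 and 1.64 RPKM in FOXA1-OE, at 3.08, 3.63, 3.80 and 3.23 RPKM in HNF4G-KO and at 0.495, 1.87, 0.610, 1.501 and 1.10 RPKM in HNF4G-KO + FOXA1-OE tumors. All 4 HNF4G-KO tumors lay above all other tumors. The contrast was -1.58 (SE 0.23, adjusted p = 0.042), from a difference of 0.45 without the label and -1.13 with it. FLRT3, at higher levels, had group means of 8.48 ± 0.973 (SD, n = 3), 10.5 ± 2.50 (n = 3), 20.4 ± 4.84 (n = 4) and 8.07 ± 1.30 RPKM (n = 4 mice) in the same order of groups. Its contrast was -1.48 (SE 0.29) and did not pass the test (adjusted p = 0.26), while its difference between HNF4G-KO + FOXA1-OE and HNF4G-KO tumors, -1.22, did (adjusted p = 0.042). Of 15 genes listed for latrophilins and their partners, 4 were tested, and the 2 with a contrast at an unadjusted p under 0.05 were these. Over all genes tested, 4.88% were lower.

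BST1 encodes CD157, a cell-surface enzyme of the family of NAD glycohydrolases (ENSG00000109743.10, chr4:15703065-15738313, plus strand). BST1 was at 1.08, 0.678 and 0.878 RPKM in control, at 2.45, 1.84 and 1.55 RPKM in FOXA1-OE, at 2.72, 4.02, 4.67 and 2.68 RPKM in HNF4G-KO and at 0.814, 0.955, 0.852, 1.43 and 1.05 RPKM in HNF4G-KO + FOXA1-OE tumors. Both single modifications were above the control and the doubly modified tumors, without overlap. The contrast was -1.77 (SE 0.26, adjusted p = 0.042). Of the 23 tested genes of NAD synthesis and consumption, 1 was lower (BST1) and 1 higher at an unadjusted p under 0.05. These counts are near the shares over all genes tested, 4.88% lower and 3.59% higher. The higher one was NNMT, which methylates nicotinamide, at 1.62 (SE 0.64, adjusted p = 0.49). Its levels were 3.42 to 19.99 RPKM in control and 0.0117 to 0.0778 RPKM in HNF4G-KO tumors.

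IRAK3 encodes a kinase-like protein that restrains Toll-like receptor and interleukin-1 receptor signaling (ENSG00000090376.10, chr12:66189195-66254622, plus strand). It was at 1.04, 0.671 and 1.28 RPKM in control, at 1.75, 2.02 and 1.86 RPKM in FOXA1-OE, at 2.604, 3.67, 2.86 and 2.25 RPKM in HNF4G-KO and at 0.389, 1.05, 0.631, 1.25 and 0.645 RPKM in HNF4G-KO + FOXA1-OE tumors. As for BST1, both singly modified groups lay above all other tumors, without overlap. The contrast was -1.65 (SE 0.26, adjusted p = 0.047). Of 24 tested genes of Toll-like receptor and IRAK signaling, IRAK3 was the only one lower at an unadjusted p under 0.05, and IL1RL1, described further on, the only one higher. This is near the 4.88% lower and 3.59% higher over all genes tested.

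The fifth gene, RPL31P34, is annotated as a processed pseudogene of the ribosomal protein gene RPL31 (ENSG00000231359.3, chr7:6490793-6491098, minus strand), and its reads may belong to RPL31 or to other copies. It was at 0.651 to 1.06 RPKM in control, 2.36 to 4.02 RPKM in FOXA1-OE, 0.815 to 1.501 RPKM in HNF4G-KO and 0 to 0.761 RPKM in HNF4G-KO + FOXA1-OE tumors. The FOXA1-OE tumors lay above all other tumors, and the HNF4G-KO + FOXA1-OE tumors below all HNF4G-KO tumors. The contrast was -1.64 (SE 0.25, adjusted p = 0.042). RPL31, chosen after its values were seen, had a contrast of -0.61 (SE 0.46, adjusted p = 0.78).

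**Figure D1:**
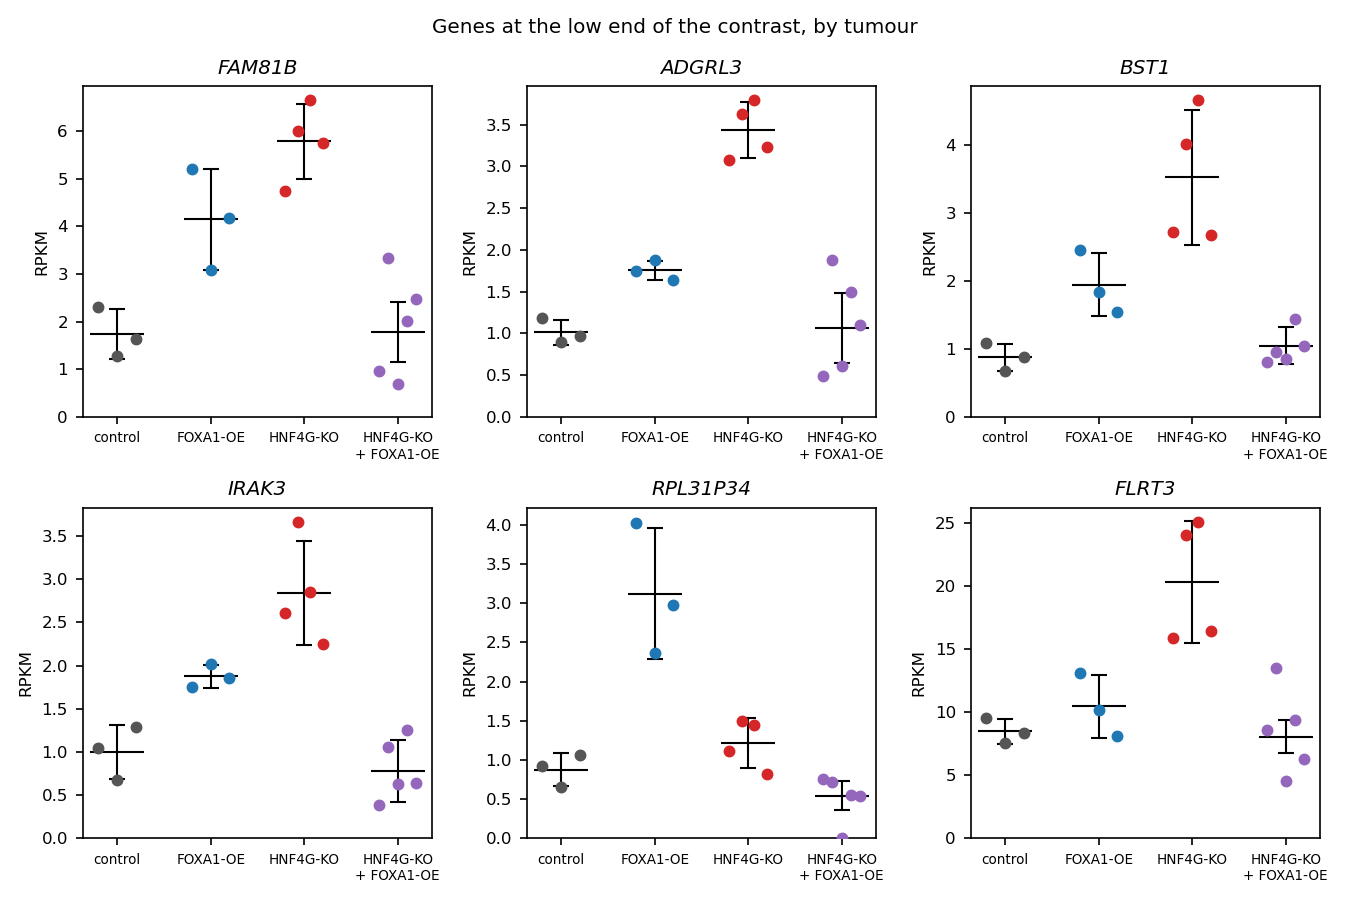
RPKM (vertical axis, linear, from 0) of the 5 genes at an adjusted p under 0.05 and of FLRT3 in each primary tumor, by group. Points are tumors, and the bar and whiskers are the mean ± SD over mice (3, 3, 4 and 4), with HNF4G-KO + FOXA1-OE tumors 2 and 3 taken as 1 mouse. In FAM81B, ADGRL3, BST1 and IRAK3 the control and HNF4G-KO + FOXA1-OE tumors are low and the FOXA1-OE and HNF4G-KO tumors lie above the control tumors.

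The calls rested on small margins. The gene after the fifth by p-value, UBXN10, had an adjusted p of 0.13. Leaving out 1 mouse at a time kept the contrasts of the 5 genes between -2.37 and -1.43, while 9 of the 14 such fits called no gene at an adjusted p under 0.05. Without FOXA1-OE tumor 3, whose FOXA1 was at the control level, 6 genes were called, of which 3 (FAM81B, ADGRL3 and BST1) were among the 5. At an unadjusted p under 0.05 that fit had 1805 genes lower and 642 higher.

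The 50 genes with the lowest and the 50 with the highest moderated t show how the contrast arose, as a description, since the contrast chose them. At the low end, all 50 genes were above 0 in the difference between FOXA1-OE and control tumors, with a median of 0.52, and below 0 in the difference between HNF4G-KO + FOXA1-OE and HNF4G-KO tumors, with a median of -0.71. The highest group mean was that of HNF4G-KO in 30 of these genes and that of FOXA1-OE in 20, and the lowest was that of HNF4G-KO + FOXA1-OE in 31 and that of the control in 19. At the high end the signs were turned around in all 50 genes, with medians of -0.66 and 0.65. There the control had the highest mean in 34 genes and HNF4G-KO + FOXA1-OE in 16, while HNF4G-KO had the lowest in 32 and FOXA1-OE in 18. Across all 14269 genes, 2831 had the signs of the low end and 2344 those of the high end. The 2 differences have no tumor in common, and over genes, which are not independent replicates, Pearson's r between them was 0.28 and Spearman's rho 0.32.

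Among the 23 gene lists, that of motile cilia had the largest share of members with a lower contrast. Motile cilia are the beating projections of airway, oviduct and ependymal cells; FOXJ1 and the RFX factors switch on their genes, and dynein arms, radial spokes and the nexin-dynein regulatory complex make up the moving axoneme. Pancreatic duct epithelium normally carries a single non-motile cilium per cell. Of 36 genes listed, 35 were in the table and 18 passed the RPKM filter. Of these, 12 had a lower contrast at an unadjusted p under 0.05 and 0 had a higher one, beside 4.88% and 3.59% of all genes tested, and the median contrast was -0.73, beside -0.05 over all genes tested. None passed at an adjusted p under 0.05. The list had been drawn up with earlier results of these data known. Among the 35 genes with no filter, 16 were lower and 0 higher, beside 1588 lower and 1615 higher of all 44505 genes in that fit.

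The sequences of promoters are shown for 3 motile cilia genes at the low end and for FAM81B, each from 250 bases before to 50 bases after the transcription start, as given by RefSeq for GRCh38.p14 and read 5′ to 3′ on the gene's strand. The letters searched, on both strands, were TGTTTAC for forkhead factors such as FOXA1 and FOXJ1, CAAAGTCCA for HNF4 factors and GTTGCC, which is one side of the X-box of RFX factors; capitals mark a match. The promoters are those of FAM81B at chr5:95391116-95391415 (plus), RSPH4A at chr6:116616229-116616528 (plus), DRC1 at chr2:26401670-26401969 (plus) and CFAP43 at chr10:104232315-104232614 (minus).
FAM81B: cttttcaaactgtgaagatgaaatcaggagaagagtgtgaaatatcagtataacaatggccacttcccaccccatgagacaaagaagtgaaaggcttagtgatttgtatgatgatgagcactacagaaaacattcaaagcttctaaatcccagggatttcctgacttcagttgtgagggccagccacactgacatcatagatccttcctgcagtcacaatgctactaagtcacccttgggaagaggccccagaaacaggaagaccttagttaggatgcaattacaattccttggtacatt
RSPH4A: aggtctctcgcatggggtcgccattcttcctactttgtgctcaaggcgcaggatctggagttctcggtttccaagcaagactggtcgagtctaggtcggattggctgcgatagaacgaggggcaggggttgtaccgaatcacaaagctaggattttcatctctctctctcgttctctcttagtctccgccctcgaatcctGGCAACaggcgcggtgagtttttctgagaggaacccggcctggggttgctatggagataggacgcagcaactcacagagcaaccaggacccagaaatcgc
DRC1: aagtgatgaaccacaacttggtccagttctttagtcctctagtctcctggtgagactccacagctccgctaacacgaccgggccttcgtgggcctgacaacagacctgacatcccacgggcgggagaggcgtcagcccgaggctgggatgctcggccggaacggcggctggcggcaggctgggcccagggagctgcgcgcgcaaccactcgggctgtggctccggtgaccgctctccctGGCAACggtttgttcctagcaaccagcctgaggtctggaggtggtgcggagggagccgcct
CFAP43: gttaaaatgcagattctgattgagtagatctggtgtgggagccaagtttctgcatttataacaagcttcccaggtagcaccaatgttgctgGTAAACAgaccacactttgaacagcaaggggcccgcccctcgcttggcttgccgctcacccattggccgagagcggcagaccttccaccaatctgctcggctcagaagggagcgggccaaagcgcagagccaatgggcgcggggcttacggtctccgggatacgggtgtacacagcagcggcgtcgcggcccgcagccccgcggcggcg

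GTTGCC was found in RSPH4A and DRC1 and TGTTTAC in CFAP43, and the FAM81B window held none of the 3. GTTGCC was present in the promoters of 15 of the 27 listed cilia genes that RefSeq matched, against 14.6% of all 27305 genes with a promoter. TGTTTAC was present in 4 of these 27 against 4.19% of all genes. CAAAGTCCA was present in 0 of 27 against 0.472%. Among the protein-coding genes of the 50 lowest, 29 had a promoter, of which 3 held TGTTTAC, 6 GTTGCC and 0 CAAAGTCCA. Windows differ in base composition, and a match is a description of the letters and not of binding.

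RSPH4A, a radial spoke head protein (ENSG00000111834.12, chr6:116616479-116632985), was at 0.582, 0.441 and 0.464 RPKM in control, at 1.01, 0.785 and 0.526 RPKM in FOXA1-OE, at 1.96, 1.69, 2.09 and 2.07 RPKM in HNF4G-KO and at 0.301, 1.13, 0.389, 0.967 and 0.678 RPKM in HNF4G-KO + FOXA1-OE tumors. HNF4G-KO tumors were above all others. Only that group had a mean above 1 RPKM, so RSPH4A, at a mean of 1.005 RPKM over all tumors, passed the filter through it. Its contrast was -1.08 (SE 0.22, adjusted p = 0.26). CFAP43, an axonemal protein (ENSG00000197748.12, chr10:104129888-104232364), followed with 0.725 to 0.869 RPKM in control, 0.884 to 1.37 RPKM in FOXA1-OE, 1.42 to 2.17 RPKM in HNF4G-KO and 0.422 to 1.05 RPKM in HNF4G-KO + FOXA1-OE tumors, and its contrast was -0.95 (SE 0.20, adjusted p = 0.26).

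DRC1, a subunit of the nexin-dynein regulatory complex (ENSG00000157856.11, chr2:26401920-26456711), differed from them in where it was high. It was at 4.34 to 6.22 RPKM in control, 3.70 to 8.68 RPKM in FOXA1-OE and 4.74 to 6.21 RPKM in HNF4G-KO tumors and at 1.05 to 2.70 RPKM in HNF4G-KO + FOXA1-OE tumors, which lay below all tumors of the other groups. Its contrast was -1.35 (SE 0.34, adjusted p = 0.36). RFX3, a transcription factor of ciliated cells, was at 0.754 to 0.831 RPKM in control, at 1.38, 1.37 and 0.650 RPKM in FOXA1-OE, at 1.23 to 2.10 RPKM in HNF4G-KO and at 0.558 to 1.03 RPKM in HNF4G-KO + FOXA1-OE tumors (contrast -0.87, SE 0.24, adjusted p = 0.39). FOXJ1, the master regulator of motile cilia, had a contrast of -0.96 (SE 0.51, adjusted p = 0.64) and missed an unadjusted p under 0.05. It was at 39.5 to 41.8 RPKM in control, at 59.8, 65.2 and 15.3 RPKM in FOXA1-OE, at 50.7 to 63.7 RPKM in HNF4G-KO and at 24.7 to 33.9 RPKM in HNF4G-KO + FOXA1-OE tumors. The FOXA1-OE tumor with FOXJ1 at 15.3 RPKM was tumor 3, without which FOXJ1 was among the 6 genes called. This gene was singled out here after its values were seen. CCNO and MCIDAS, which act before FOXJ1 in multiciliated cells, had contrasts of 0.32 (SE 0.24) and 0.05 (SE 0.33).

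Of the 18 genes, 11 were lower in HNF4G-KO + FOXA1-OE than in HNF4G-KO tumors at an unadjusted p under 0.05 (13.3% of all genes tested), 7 were higher in HNF4G-KO than in control tumors (16.1% of all genes) and 2 were higher in FOXA1-OE than in control tumors (2.46% of all genes). The 2 last were SPAG16 and RSPH1. The median differences were -0.40, 0.38 and 0.22. Their mean level over the 18 genes, in log2(RPKM + 1), was 2.00 to 2.16 in control, 2.02 to 2.51 in FOXA1-OE, 2.33 to 2.44 in HNF4G-KO and 1.55 to 2.07 in HNF4G-KO + FOXA1-OE tumors, and the lowest FOXA1-OE value was that of tumor 3. When 1 mouse at a time was left out, 9 to 14 of the 18 genes were lower at an unadjusted p under 0.05 and 0 were higher. Over all 14269 genes tested, 438 to 1805 were lower in these fits. With the host stroma level as a covariate, 14 of the 18 were lower, beside 1729 of all genes tested, which had been 697 in the main fit.

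Some genes at the low end outside the list are also known from cilia, and these were grouped after their values were seen. UBXN10, an adaptor of the VCP ATPase that is needed for building cilia, was at 1.79 to 2.41 RPKM in control, 3.21 to 3.64 RPKM in FOXA1-OE, 2.29 to 2.81 RPKM in HNF4G-KO and 0.396 to 1.52 RPKM in HNF4G-KO + FOXA1-OE tumors. The FOXA1-OE tumors were above and the HNF4G-KO + FOXA1-OE tumors below all others, and the contrast was -1.29 (SE 0.22, adjusted p = 0.13). PIFO, a protein of the ciliary base, had a contrast of -1.47 (SE 0.29, adjusted p = 0.26), with control and HNF4G-KO + FOXA1-OE tumors at 2.45 to 6.001 RPKM and FOXA1-OE and HNF4G-KO tumors at 6.66 to 10.2 RPKM. C20orf85, a protein inside ciliary microtubules, had a contrast of -2.26 (SE 0.49, adjusted p = 0.27). CFAP70, DNAI7, DNAAF1 and SPAG8 were also among the 50 lowest, with contrasts from -1.63 to -1.12.

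None of the other genes named at the low end passed at an adjusted p under 0.05 in the contrast. HEY1, a repressor downstream of Notch, was at 0.979 to 1.56 RPKM in control, 3.05 to 3.74 RPKM in FOXA1-OE, 1.10 to 2.77 RPKM in HNF4G-KO and 0.937 to 1.63 RPKM in HNF4G-KO + FOXA1-OE tumors, and its contrast was -1.48 (SE 0.27, adjusted p = 0.18). FGF3, a fibroblast growth factor, had the most negative contrast of all genes at an unadjusted p under 0.05 that code for a protein, -2.46 (SE 0.52, adjusted p = 0.26), with 5.07 to 5.90 RPKM in control, 14.4 to 14.5 RPKM in FOXA1-OE, 6.40 to 9.92 RPKM in HNF4G-KO and 0.491 to 6.996 RPKM in HNF4G-KO + FOXA1-OE tumors. In both genes the FOXA1-OE tumors were above all others, FOXA1-OE tumor 3 included.

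CYP24A1, the enzyme that inactivates vitamin D, was at 16.9 to 24.4 RPKM in control, 27.5 to 48.9 RPKM in FOXA1-OE, 46.2 to 84.9 RPKM in HNF4G-KO and 14.9 to 38.5 RPKM in HNF4G-KO + FOXA1-OE tumors (contrast -2.08, SE 0.42, adjusted p = 0.26). RGS2, which dampens G protein signaling, was at 44.5 to 49.2 RPKM in control, 66.9 to 97.9 RPKM in FOXA1-OE, 55.9 to 81.1 RPKM in HNF4G-KO and 33.7 to 50.8 RPKM in HNF4G-KO + FOXA1-OE tumors. Both single modifications lay above control and the double one for RGS2, without overlap, and its contrast was -1.31 (SE 0.27, adjusted p = 0.26). HLA-DMB, which helps load peptides on MHC class II, had a contrast of -1.41 (SE 0.28, adjusted p = 0.26).

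CLDN18, a tight junction protein of stomach epithelium, showed another pattern, with a FOXA1-OE group that did not stand apart from control. It was at 0.0209 to 0.206 RPKM in control and 0.106 to 0.235 RPKM in FOXA1-OE tumors, at 15.3, 12.9, 5.61 and 6.04 RPKM in HNF4G-KO tumors and at 2.89, 2.76, 0.108, 2.41 and 0.624 RPKM in HNF4G-KO + FOXA1-OE tumors. Its contrast was -2.02 (SE 0.48, adjusted p = 0.36), almost all from the difference of -1.98 between HNF4G-KO + FOXA1-OE and HNF4G-KO tumors (adjusted p = 0.042). SOX2, a stem cell and foregut factor, had a contrast of -1.85 (SE 0.66, adjusted p = 0.47), with HNF4G-KO + FOXA1-OE tumors at 1.78 to 13.6 RPKM and the other tumors at 13.4 to 48.5 RPKM. PLCB4, a phospholipase C that acts downstream of Gq proteins, was at 2.88 to 3.40 RPKM in HNF4G-KO and 0.805 to 2.69 RPKM in HNF4G-KO + FOXA1-OE tumors. Its difference between these groups was -0.75 (adjusted p = 0.042) and its contrast -0.52 (SE 0.18, adjusted p = 0.46). PLCB4 was at 0.517 to 0.767 RPKM in control and at 0.351 to 0.502 RPKM in FOXA1-OE tumors, without overlap. That difference was -0.23 (adjusted p = 0.84), so PLCB4 was lower with the FOXA1 vector in both backgrounds. On the log2(RPKM + 1) scale the change at these lower levels is understated. Of 12 tested genes of phospholipase C and inositol trisphosphate receptors, 3 (PLCB4, PLCH1 and GNA14) had a lower contrast at an unadjusted p under 0.05 and 0 a higher one, beside 4.88% and 3.59% of all genes tested, with a median of -0.41. The 3 became 1 to 4 when 1 mouse at a time was left out, with 1 without control tumor 3, FOXA1-OE tumor 2 or HNF4G-KO + FOXA1-OE tumor 1.

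Hypoxia and glycolysis genes had a median contrast of -0.64 over 31 tested genes, of which 5 (P4HA1, HK2, CA12, BNIP3L and KDM3A) were lower and 0 higher at an unadjusted p under 0.05. Over all genes tested, 4.88% were lower and 3.59% higher. P4HA1, which hydroxylates collagen, was at 28.7 to 43.8 RPKM in control, 27.7 to 62.9 RPKM in FOXA1-OE, 51.1 to 108 RPKM in HNF4G-KO and 15.0 to 69.6 RPKM in HNF4G-KO + FOXA1-OE tumors (contrast -1.56, SE 0.53, adjusted p = 0.44). HK2, the inducible hexokinase, had a contrast of -1.19 (SE 0.46, adjusted p = 0.49), and its groups all overlapped. The count of lower genes was 1 without control tumor 2 or without FOXA1-OE tumor 1 and 10 without HNF4G-KO + FOXA1-OE tumor 1. In these fits, in that order, 438, 511 and 746 of all 14269 genes tested were lower.

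At the high end no gene passed at an adjusted p under 0.05, and 512 genes were higher at an unadjusted p under 0.05. IL1RL1 is the receptor of interleukin 33 (ENSG00000115602.16, chr2:102311502-102352037). It was at 1.22, 1.26 and 0.808 RPKM in control, at 0.464, 0.361 and 0.692 RPKM in FOXA1-OE, at 0.342, 0.163, 0.321 and 0.239 RPKM in HNF4G-KO and at 1.52, 0.375, 6.16, 1.25 and 0.584 RPKM in HNF4G-KO + FOXA1-OE tumors. Tumors 2 and 3 of the last group, at 0.375 and 6.16 RPKM, came from the same mouse. The singly modified tumors were all below control, and the contrast was 1.34 (SE 0.28, adjusted p = 0.26). Over all genes tested, the median absolute log2 difference between these 2 tumors was 0.279, within the 0.264 to 0.575 between tumors of different mice in that group.

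TMEM171, a membrane protein, was likewise lower in every singly modified tumor than in control, with means of 2.80 ± 0.553, 1.74 ± 0.262, 1.33 ± 0.212 and 2.25 ± 0.4004 RPKM in the order of the groups used above (contrast 0.95, SE 0.21, adjusted p = 0.31). SH3BGRL3, a small thioredoxin-like protein, was at 78.3 to 107 RPKM in control, 51.6 to 60.1 RPKM in FOXA1-OE, 40.5 to 73.8 RPKM in HNF4G-KO and 64.5 to 147 RPKM in HNF4G-KO + FOXA1-OE tumors (contrast 1.61, SE 0.38, adjusted p = 0.35). SFN encodes 14-3-3 sigma, an epithelial cell cycle inhibitor. It was at 86.8 to 108 RPKM in control, 80.8 to 111 RPKM in FOXA1-OE, 33.5 to 52.3 RPKM in HNF4G-KO and 48.4 to 131 RPKM in HNF4G-KO + FOXA1-OE tumors, so that the HNF4G-KO tumors were below all control and FOXA1-OE tumors, and its contrast was 1.29 (SE 0.32, adjusted p = 0.36). FOSL1, a subunit of the AP-1 transcription factor, was also lowest in HNF4G-KO tumors, at 29.3 to 44.9 RPKM against 49.2 RPKM or more in all others, with a contrast of 0.94 (SE 0.27, adjusted p = 0.40).

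A further set at the high end had its highest group mean in the doubly modified tumors. IL32, a proinflammatory cytokine, was at 5.78 to 11.1 RPKM in control, 4.35 to 7.27 RPKM in FOXA1-OE, 5.66 to 10.8 RPKM in HNF4G-KO and 11.1 to 32.4 RPKM in HNF4G-KO + FOXA1-OE tumors (contrast 1.89, SE 0.47, adjusted p = 0.36). GPX3, a secreted glutathione peroxidase, was at 2.86 to 6.45 RPKM in the other groups and at 8.26 to 25.1 RPKM in HNF4G-KO + FOXA1-OE tumors, without overlap (contrast 1.53, SE 0.44, adjusted p = 0.40). GUCA2B, which encodes the gut peptide uroguanylin, was at 0.0763 to 0.594 RPKM in FOXA1-OE, 0.648 to 0.763 RPKM in control, 1.17 to 3.04 RPKM in HNF4G-KO and 2.37 to 7.93 RPKM in HNF4G-KO + FOXA1-OE tumors (contrast 1.65, SE 0.42, adjusted p = 0.36).

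AKR1B10, an aldo-keto reductase of gut epithelium, followed the order of GUCA2B, with means of 9.99 ± 4.20 RPKM in FOXA1-OE (n = 3), 20.1 ± 4.41 in control (n = 3), 34.0 ± 17.1 in HNF4G-KO (n = 4) and 52.3 ± 12.04 in the mice with both modifications (n = 4). Its contrast was 1.68 (SE 0.46, adjusted p = 0.39). CLU, an extracellular chaperone, VGF, a secreted neuropeptide precursor, and SRM, the spermidine synthase, had contrasts of 1.31 (SE 0.35), 0.88 (SE 0.23) and 1.18 (SE 0.31), all at adjusted p-values of 0.37 to 0.38.

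**Figure D2:**
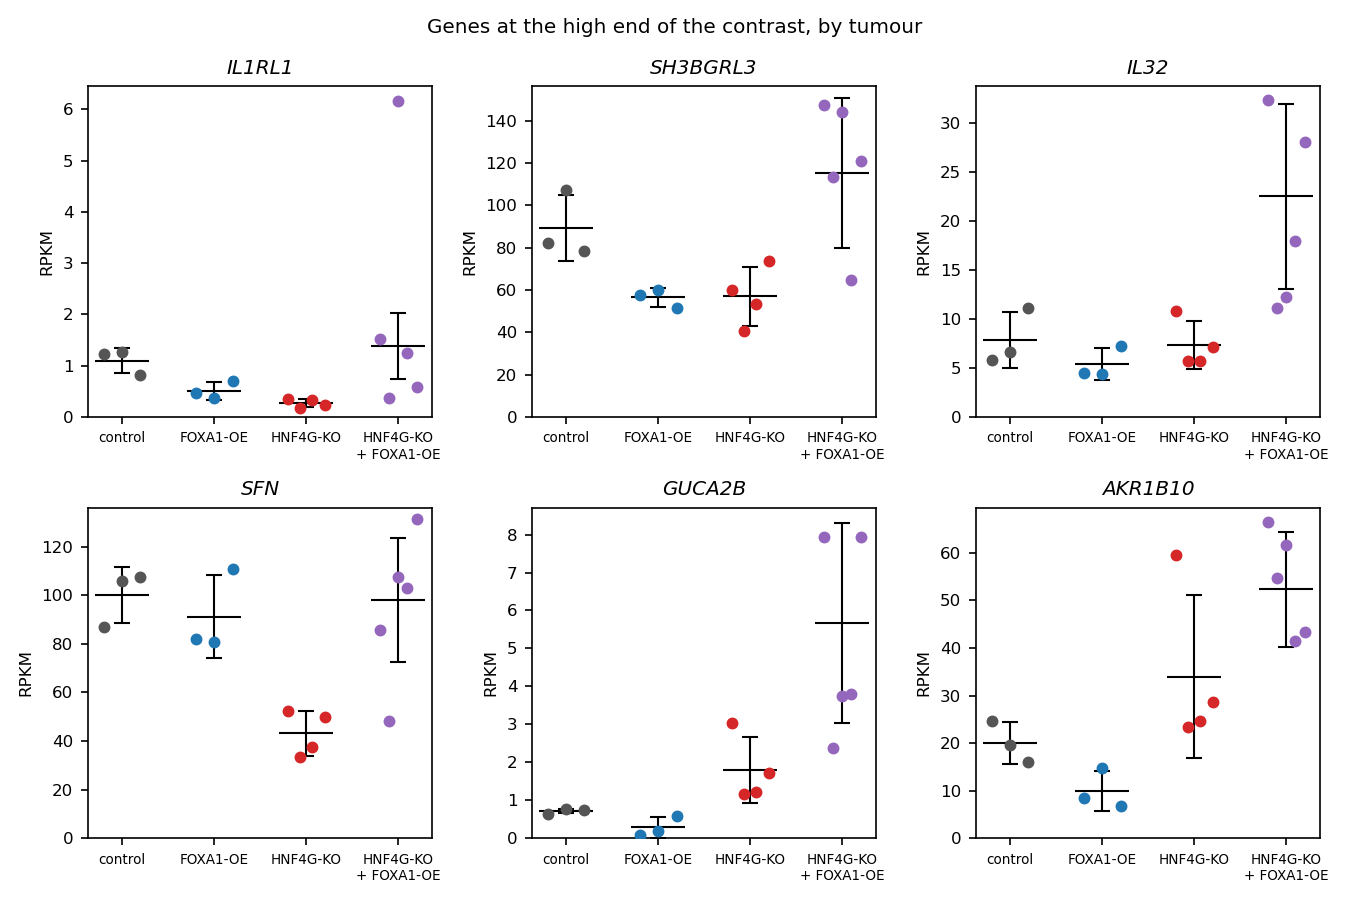
RPKM (vertical axis, linear, from 0) of 6 protein-coding genes at the high end in each primary tumor, by group. Points are tumors, and the bar and whiskers are the mean ± SD over mice (3, 3, 4 and 4). SFN is low in the HNF4G-KO tumors, IL32 and GUCA2B are highest in HNF4G-KO + FOXA1-OE tumors, and in IL1RL1 tumor 3 of that group lies at 6.16 RPKM.

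The high end differed from the low end in the kind of genes it held. Processed pseudogenes, copies of spliced transcripts set back into the genome, made up 23 of the 50 highest genes (46%) and 1 of the 50 lowest, beside 7.61% of all genes tested, and protein-coding genes made up 19 and 43. Of 1086 tested processed pseudogenes, 255 were higher and 10 lower at an unadjusted p under 0.05, with a median contrast of 0.59. They were 255 of the 512 higher genes. Their parents are abundant genes, among them PPIA and RPL17 for PPIAP54 and RPL17P33, and the reads of such near-identical copies are uncertain. Of 79 tested ribosomal protein genes, 0 were higher and 0 lower, with a median of -0.01. Both sets were chosen after their values were seen.

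Processed pseudogenes took 1.93% to 2.90% of the RPKM of control tumors, 1.67% to 2.58% of FOXA1-OE, 1.29% to 1.54% of HNF4G-KO and 0.947% to 2.02% of HNF4G-KO + FOXA1-OE tumors. The highest share was that of control tumor 2, and without this tumor 119 processed pseudogenes were higher. Control tumor 2 was also the tumor with the host pancreas level of 2193 RPKM. FOXA1-OE tumor 1 had a pseudogene share of 2.58% and a host pancreas level of 10.4 RPKM. HNF4G-KO + FOXA1-OE tumors 2 and 4 both had mitochondrial shares of 52.8%, and their pseudogene shares were 0.947% and 1.61%. The part of host pancreas and of mitochondrial RNA in the result was not tested. Among the protein-coding genes tested, 581 were lower and 177 higher.

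By size, the highest contrasts among protein-coding genes at an unadjusted p under 0.05 were those of INS, LY6D, DEFB1, IL32, DES and AKR1B10. INS, which encodes insulin and is made by islet cells, was at 6.89, 62.3 and 0.209 RPKM in control tumors and at 0 to 8.16 RPKM in the others, and its contrast of 2.98 (SE 1.27, adjusted p = 0.54) was that of a gene of the host pancreas list. All 17 tested genes of that list had a contrast above 0, with a median of 1.87. Over all 14269 genes tested, 7971 were below 0. A high control tumor raises the contrast by its definition and can carry a gene past the RPKM filter, so this count is not evidence by itself. PRSS1 was at 56.15 RPKM in control tumor 2, with a median of 0.684 RPKM over the tumors. Without control tumor 2, 4 of the 17 were below 0 and the median was 0.19. DES, the muscle intermediate filament desmin, was at 0.0411 RPKM in FOXA1-OE tumor 3 and at 6.68 and 6.60 RPKM in HNF4G-KO + FOXA1-OE tumors 4 and 5, with a contrast of 1.77 (SE 0.65, adjusted p = 0.48). The host stroma list had 2 of 11 tested genes higher, ACTA2 and TAGLN, and a median of 0.82, beside 3.59% higher over all genes tested. When 1 mouse at a time was left out the count was 1 to 6, with 1 without control tumor 2 and 6 without control tumor 3, and the median was 0.31 to 1.34, with 0.31 without FOXA1-OE tumor 3. The part of host cells in these results was not tested.

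LY6D, a surface protein of squamous and basal epithelium, was at 5.12 to 6.40 RPKM in control, 1.54 to 3.18 RPKM in FOXA1-OE, 10.8 to 34.2 RPKM in HNF4G-KO and 16.2 to 124 RPKM in HNF4G-KO + FOXA1-OE tumors (contrast 2.48, SE 0.81, adjusted p = 0.44). The FOXA1-OE tumors were below control without overlap. DEFB1, an epithelial antimicrobial peptide, had a contrast of 1.97 (SE 0.61, adjusted p = 0.43), and its groups overlapped.

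The lists of pancreatic cancer subtypes had small counts at an unadjusted p under 0.05, beside 4.88% lower and 3.59% higher of all genes tested. Of 21 tested basal-like genes, 3 were higher (LY6D, CST6 and KRT7) and 0 lower, with a median of 0.26. When 1 mouse at a time was left out, 2 to 5 of them were higher and 0 to 1 lower. Of 21 tested classical genes, 2 were lower and 1 higher, with a median of -0.02. The lower ones were AGR3, a secretory pathway protein, at -1.70 (SE 0.54, adjusted p = 0.44) and ST6GALNAC1, a sialyltransferase, at -1.15 (SE 0.31, adjusted p = 0.39), and the higher one was MYO1A, the brush border myosin, at 1.15 (SE 0.35, adjusted p = 0.42). MYO1A was at 4.10 to 8.46 RPKM in control, 2.09 to 3.64 RPKM in FOXA1-OE, 18.5 to 33.2 RPKM in HNF4G-KO and 23.2 to 36.7 RPKM in HNF4G-KO + FOXA1-OE tumors.

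Of 16 tested endoderm factors, 2 were lower, KLF5 at -0.70 (SE 0.27) and HHEX at -0.86 (SE 0.39), beside 4.88% of all genes tested. That count was 0 without FOXA1-OE tumor 1, 5 without FOXA1-OE tumor 3 and 1 to 3 without any other mouse. Over all 14269 genes tested, 511 were lower without FOXA1-OE tumor 1 and 1805 without FOXA1-OE tumor 3. Of 32 proliferation genes, 2 were higher, CDC20 and AURKB, beside 3.59% of all genes tested, with a median of 0.29. Without FOXA1-OE tumor 2 the count was 8, without any other mouse it was 1 to 3, and the median was 0.092 without FOXA1-OE tumor 3 and 0.030 with the host stroma level as a covariate. Of 16 enterocyte brush border genes, 2 were higher (MYO1A and ESPN), and of 23 immediate early genes 2 were higher (FOSL1 and EGR1). Over all genes tested, 3.59% were higher. The brush border count was 1 to 4 when 1 mouse at a time was left out, with 4 without the mouse of HNF4G-KO + FOXA1-OE tumors 2 and 3. In epithelial adhesion (26 tested), interferon response (33) and cholesterol synthesis (25), 0 genes passed an unadjusted p under 0.05 in either direction. The remaining lists had at most 1 gene in each direction, namely claudins (11 tested, CLDN18 lower), gastric and goblet secretory genes (17, SOX2 lower), mesenchymal transition (19, ITGB6 lower), vitamin D response (11, CYP24A1 lower and SPP1 higher), host adipose (3, none) and host blood (4, none).

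Metastases were sampled only in the groups labeled HNF4G-KO, so the contrast cannot be formed in them, and they are given as values. The first and second HNF4G-KO + FOXA1-OE metastases, from spleen and peritoneum, came from the same mouse. The other metastases were peritoneal. Every metastasis but the third HNF4G-KO + FOXA1-OE one shared a mouse with a primary tumor of the contrast. BST1 was at 4.43 and 3.45 RPKM in the 2 HNF4G-KO metastases and at 0.390, 1.26, 2.68 and 0.533 RPKM in the 4 HNF4G-KO + FOXA1-OE metastases. IRAK3 was at 2.09 and 3.19 RPKM and at 0.523, 0.313, 3.39 and 0.451 RPKM, and ADGRL3 at 1.58 and 2.78 RPKM and at 0.495, 0.737, 3.85 and 0.655 RPKM. FAM81B was at 0.193 and 2.41 RPKM and at 0.0788, 1.19, 4.18 and 1.90 RPKM, RPL31P34 at 0.650 and 1.04 RPKM and at 1.285, 0.658, 1.28 and 0.490 RPKM, and FLRT3 at 11.2 and 10.7 RPKM and at 5.30, 7.41, 9.56 and 13.9 RPKM. The 2 groups of metastases overlapped for each of these genes but BST1. The third metastasis of the latter group was the highest of the 4 for BST1, IRAK3, ADGRL3 and FAM81B, and its FOXA1 level was 1.30 RPKM. The first, with the lowest FOXA1 of the 4, was the lowest for BST1, ADGRL3 and FAM81B. FOXA1 was at 0.535, 17.9, 1.30 and 1.56 RPKM in these 4 metastases and at 0.362 and 0.602 RPKM in the HNF4G-KO metastases, so that only 1 of the 4 was within the FOXA1 range of the HNF4G-KO + FOXA1-OE primary tumors.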

How the data were processed

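According to the methods, RNA from bulk tumors was sequenced as single-end reads of 50 bp. The authors aligned reads with STAR 2.6.1a and deposited RPKM values per gene. The authors' processing notes also list featureCounts 2.0.4 and DESeq2. The build is GRCh38 in these notes and GRCh37 in the methods. How multiply aligned reads were counted, and whether mouse reads were removed, is not given in the sources used here. The count test of the methods could not be run on RPKM. Symbols and coordinates are from GENCODE 44 (GRCh38): 58250 of 58719 gene IDs matched without version. Values were taken as log2(RPKM + 1), genes whose mean reached 1 RPKM were kept, and limma 3.58.1 (R 4.3.3) fitted all 14 mice together (lmFit, then eBayes with trend), adjusting p-values by Benjamini-Hochberg with a limit of 0.05, in a script tested on simulated data. Separate mice are the replicates, and clones were pooled before injection. The paper describes no separately made cell lines within a group. Standard errors and p-values thus measure the spread between mice and not between separately engineered cell populations. Other differences between the cell populations of the 4 groups cannot be told apart from the contrast. Named were all called genes, the 12 lowest and 12 highest protein-coding genes by moderated t, the 6 lowest and 6 highest by contrast at an unadjusted p under 0.05, FOXA1, HNF4G and HNF4A, and up to 4 genes per list; a few others are said to be chosen after seeing values. The members and lists were chosen with earlier results of these data known. Tables were made with Python 3.11.15 and pandas 2.3.3. Mouse cell line data of the series were not used here.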

Additional observations from a re-analysis of the deposited data

Results flagged for a closer look

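FAM81B (-2.22), ADGRL3 (-1.58), BST1 (-1.77), RPL31P34 (-1.64) and IRAK3 (-1.65) are listed because the difference that went with the FOXA1 vector differed between tumors with and without the HNF4G-KO label by the test of that difference itself, on the log2(RPKM + 1) scale. Among 72 groups of 4 mice, looked at for the 36 genes named by rank or role, 1 held a mouse far from the other 3: SRM was at 15.7 RPKM in HNF4G-KO tumor 2, below the other 3 tumors of its group. Chance puts about 1 in 20 groups past this limit.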

How the results depend on the processing

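The count of 5 genes at an adjusted p under 0.05 was unstable. It was 0 with a pseudocount of 0.1, with a filter at 5 RPKM (which left out the called genes), with tumors shifted to the same median, with upper-quartile scaling, with tumors 2 and 3 as separate samples and with tumor 2 only of that mouse; it was 2 with no filter, 1 with the replicate block and 69 with array weights, which gave FOXA1-OE tumor 3 the lowest weight. Leaving out 1 mouse at a time gave 0 to 6 genes: 0 without any one of the control or HNF4G-KO mice, without FOXA1-OE mouse 1 or without the mouse of HNF4G-KO + FOXA1-OE tumors 2 and 3. The count at an unadjusted p under 0.05, 1209, became 3203 with no filter, 468 with a filter at 5 RPKM, 3444 with array weights, 2289 with the host stroma covariate and 700 to 2447 when 1 mouse was left out, lowest without control 2 and highest without FOXA1-OE 3. The tumor numbers did not pair the mice (correlations of same-numbered mice from -0.27 to 0.63); with tumor number as a replicate block, 1094 genes were at an unadjusted p under 0.05 and the single called gene was C20orf85.

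Of 36 genes named by rank or role, 33 kept the sign of their contrast in every alternative. These 33 were picked by this same contrast, and the alternatives refit mostly the same mice, so their kept signs are not a test. The exceptions were FOXA1, HNF4G and HNF4A, whose contrasts were not past the threshold. FOXA1 turned to -0.0397 with array weights and -0.20 with the stroma covariate, and was at -0.36 to 0.83 when 1 mouse was left out, below 0 without FOXA1-OE 3. HNF4G turned to 0.0928 with a pseudocount of 0.1 and 0.11 with the replicate block, and was at -0.53 to 0.23 when 1 mouse was left out. HNF4A turned to -0.0114 with tumor 3 only, -0.0634 with the replicate block and -0.16 with the stroma covariate, and was at -0.15 to 0.23 when 1 mouse was left out. The cause was not tested. The count of lower motile cilia genes was 3 to 16 over 27 alternatives, lowest with the filter at 5 RPKM, which tests fewer genes. Intervals at low RPKM are limited by 3 or 4 mice per group.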
